A study of Mus musculus with 8 samples.

Results

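The genes described here are the metallothioneins and their zinc response partners, 6 genes taken by name from the 40840 in the tables: Mt1, Mt2, Mt3, Mtf1, Slc30a1 and Slc39a10. The rule names them and uses no threshold on a measured value, although the set was put together with earlier results of these data known. All 6 passed the filter of at least 10 counts in total that left 19963 genes for testing. Their RNA was measured in 8 cultures of primary myofibroblastic hepatic stellate cells (pMF-HSCs), 4 per group. Stellate cells lie beside the liver sinusoid, behind its endothelium, and store vitamin A, and in culture they become myofibroblasts that secrete collagen. The cells came from male C57BL/6J mice aged 15 to 18 weeks and became myofibroblastic on their own over 7 days in DMEM with 5% fetal bovine serum. The control group then received DMSO vehicle, and the OGTi group 50 µM OSMI-1, for 24 h. OSMI-1 blocks OGT (O-GlcNAc transferase), which attaches the sugar O-GlcNAc to nuclear and cytosolic proteins. The comparison thus rests on 1 inhibitor at 1 dose and 1 time, in cells whose state was set by culture. Per the methods the 4 replicates were independent experiments, and a treated culture was paired with the control of the same number.

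Metallothioneins are small, cysteine-rich proteins that bind zinc and copper and buffer the free metal in the cell. When zinc rises, the zinc-finger factor MTF1 binds metal response elements (MREs) and switches on metallothionein genes and the exporter gene Slc30a1 (ZnT1), while it holds down the importer gene Slc39a10 (ZIP10). Mt1 and Mt2 are expressed in most tissues and are also induced by glucocorticoids and by oxidative stress, whereas Mt3 is known mainly from the brain and Mt4 from stratified epithelia.

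Libraries held 30068876 to 37372420 expected counts, the RSEM estimate of reads per gene. Genes with a count numbered 19035 to 20293 in 7 libraries and 23746 in OGTi replicate 4. OGTi replicate 1 stood apart by gene length. In that library, genes of the length of the metallothioneins (538 to 592 bases) lay 0.64 to 0.67 higher on the log2 scale than the common trend. Genes of the length of Mtf1, Slc30a1 and Slc39a10 (5230 to 7631 bases) lay from 0.49 to 0.62 lower there, and the other 7 libraries lay between -0.18 and 0.24. Values without replicate 1, and with this trend removed, are therefore given beside the results of the 6 genes. The labelled cell type was checked by its markers. The 11 stellate cell and myofibroblast markers summed to between 7486 and 14982 TPM in control and between 5982 and 15395 TPM in OGTi. Of the 11, 2 were called lower, Pdgfrb and Lrat, and 0 higher, beside 10.2% lower and 8.13% higher among all genes tested. Across the alternatives 2 to 4 were lower and 0 higher. TPM is a share of the transcripts in a library, adjusted for gene length. The 8 hepatocyte markers, which matter because hepatocytes are rich in metallothionein, summed to 3.30 to 3.98 TPM in control and 3.05 to 7.63 TPM in OGTi. Of the 8, 5 were tested, and 1, Cyp2e1, was called higher and 0 lower, beside 8.13% and 10.2% of all genes tested. Alb did not exceed 0.17 TPM in any library. Among markers of macrophages, endothelial cells and cholangiocytes, Cd68 was called higher (edgeR adjusted p 0.00154) and Tek, Lyve1 and Krt19 lower (edgeR adjusted p 0.00235, 0.0340 and 0.0462). Of 8 macrophage markers 1 was higher and 0 lower, of 7 endothelial markers 0 and 2, and of 5 cholangiocyte markers 0 and 1. Over all genes tested, 8.13% were higher and 10.2% lower. The other 7 macrophage markers were not called. The median log2 fold changes of these lists were -0.22, -0.54 and -0.24. Cd68 and Tek were called in each alternative, whereas Lyve1 and Krt19 lost their call when any 1 replicate was left out and with no block, and Krt19 also with upper-quartile scaling, RLE scaling and no low-count filter. Summed levels went from 49.8 to 175 TPM in control to 88.4 to 228 TPM in OGTi for 8 macrophage markers, from 1.52 to 2.99 TPM to 0.32 to 0.98 TPM for 7 endothelial markers, and from 306 to 653 TPM to 125 to 551 TPM for 5 cholangiocyte markers. The cholangiocyte sum was mostly Spp1 and Krt19, with means of 356 and 118 TPM in control. The other cholangiocyte markers averaged at most 1.11 TPM there. Lyz2 and Cd68, with means of 60.3 and 22.8 TPM in control, made up most of the macrophage sum. Per the methods, the stellate cells had been separated on a density gradient and sorted by the autofluorescence of their retinol before culture, a step that removes other liver cells. The part of such cells in the results was not tested.

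Mt1, Mt2 and Mt3 lie next to each other on the plus strand of chromosome 8 (GRCm39, GENCODE). Mt3 spans chr8:94879220-94881088, Mt2 chr8:94898819-94900207 and Mt1 chr8:94905710-94906955. Mtf1 lies at chr4:124695897-124743593 on the plus strand. Slc30a1 lies at chr1:191638808-191645361 on the plus strand, and Slc39a10 at chr1:46845872-46964964 on the minus strand. All are annotated as protein coding. The MRE is the DNA word that MTF1 recognises, so its core was searched on both strands in 300-base windows, from 250 bases before to 50 bases after each RefSeq start. The core was spelled TGCACNC or TGCGCNC, where N is any base. Mt2 held 4 matches, Mt1 held 3, Slc30a1 held 2, Mt3 held 1, and Mtf1 and both annotated starts of Slc39a10 held 0. Among 32851 such windows of 27025 genes, 25.7% held at least 1 match, 7.11% at least 2, 1.97% at least 3 and 0.517% at least 4. The RefSeq starts of Mt1 and Mt2 lie before the TATAAA word, so the search was carried on to the start codon, a step chosen after the windows had been seen. With it, Mt1 held 5 matches and Mt2 held 7. The stretches below show the clustered words of Mt1, those of Mt2 nearest to its TATAAA, and those of the less matched Mt3 and Slc30a1. They are on the plus strand of GRCm39, 5′ to 3′, with the MRE core in capitals, read as its reverse complement where the word lies on the minus strand.
Mt1 at chr8:94905683-94905712: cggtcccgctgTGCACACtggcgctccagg
Mt1 at chr8:94905717-94905746: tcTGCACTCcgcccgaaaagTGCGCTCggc
Mt1 at chr8:94905797-94905826: tgctGGGTGCAaacccttTGCGCCCggact
Mt2 at chr8:94899239-94899268: gaattcgggtcGTGCGCAggcccaggggcg
Mt2 at chr8:94899302-94899331: gcGTGTGCAggcggcgggggcGCGTGCAtg
Mt2 at chr8:94899346-94899375: ggcggagctttTGCGCTCgacccaatactc
Mt3 at chr8:94879251-94879280: cgggacagcagTGCACACacacggagagca
Slc30a1 at chr1:191638839-191638868: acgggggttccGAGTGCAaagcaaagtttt
Slc30a1 at chr1:191638912-191638941: gcctccgggccGAGCGCAgtcgccgcggac

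**Figure D1:**
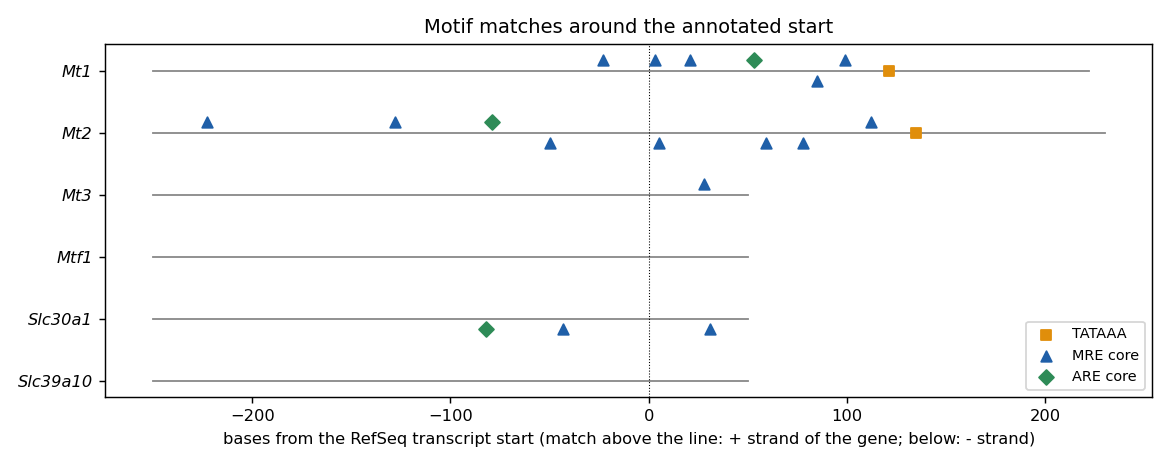
Positions of motif matches in bases from the RefSeq start (x axis) for each of the 6 genes; grey lines are the stretch searched, which runs to the start codon for Mt1 and Mt2, and symbols above or below a line mark the strand. MRE cores crowd before the TATAAA of Mt1 and Mt2, and the lines of Mtf1 and Slc39a10 carry none.

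The antioxidant response element, through which NRF2 acts, was searched as TGACNNNGC in the same windows, and overlap with an MRE core was allowed. Mt2 and Slc30a1 held 1 match each, and 12.4% of all windows held at least 1. In Mt1 a match lay outside the window, between the start and the TATAAA. A match is a word in the sequence and was not measured as a bound site in these cells.

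With OGTi, Mt1 rose 4.99-fold, Mt2 rose 7.14-fold and Slc39a10 fell 5.73-fold, while Mt3, Mtf1 and Slc30a1 did not pass the test. Of the 6 genes, 2 were called higher and 1 lower (edgeR, quasi-likelihood, replicate number as a block, adjusted p no higher than 0.05). Among all 19963 genes tested, 18.4% were called, 8.13% higher and 10.2% lower, so that change in itself was common in this comparison. These 3 calls, and the 3 genes that were not called, were the same in each of the 14 alternatives. Over all genes tested, the log2 fold change had a median of 0.01. In bulk RNA, fewer cells of a type and less RNA per cell cannot be told apart.

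**Figure D2:**
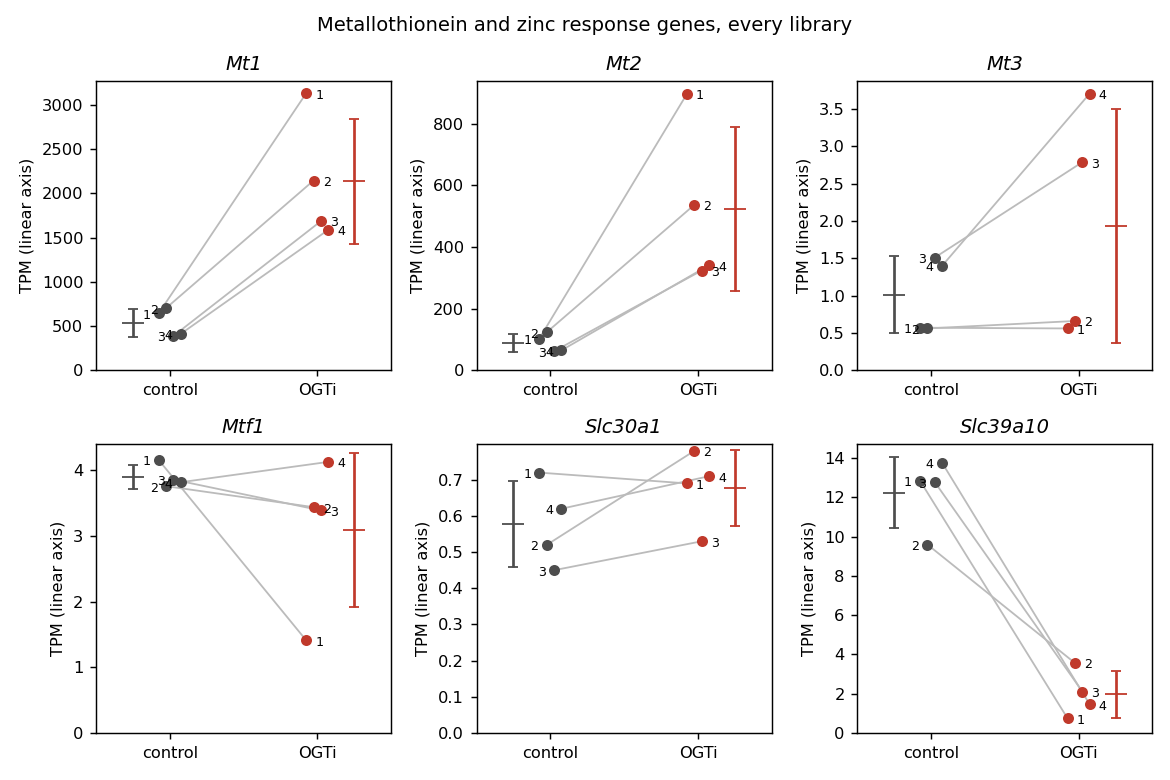
TPM on linear axes that start at 0 for the 6 genes in each of the 8 libraries; grey lines join the control and OGTi library of one replicate number, and bars give the mean ± SD (n = 4). The groups are apart for Mt1, Mt2 and Slc39a10 and overlap for the other genes, and Mtf1 has 1 low OGTi library, replicate 1.

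Mt1, the most abundant of the 6, had 643, 701, 387 and 411 TPM in control replicates 1 to 4. In OGTi replicates 1 to 4 it had 3131, 2144, 1686 and 1588 TPM. The groups did not overlap, the lowest treated culture lay above the highest control, and replicates 1 and 2 were above replicates 3 and 4 in both groups. The raw numbers behind these levels were 5334, 5949, 3008 and 3120 counts in control and 33073, 15324, 14249 and 12590 in OGTi, so that counting error was small. Among all genes ranked by TPM, Mt1 moved from between places 266 and 525 in control to between places 33 and 71 in OGTi. Scaled counts, adjusted for library size and composition, went from 3975.0 ± 1266.5 to 20292 ± 9117 (SD, n = 4). In log2 terms the rise was 2.32 ± 0.23 (SE), with a 95% interval of 1.82 to 2.82 (edgeR adjusted p 0.000294). Mt1 was higher in 4 of 4 pairs, by 6.92-fold, 3.27-fold, 5.68-fold and 4.81-fold in pairs 1 to 4. It was 2.16 on the log2 scale without replicate 1 and 2.15 with the length trend removed.

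Mt2 encodes the second widely expressed isoform. It had 102, 123, 61.5 and 64.5 TPM in control replicates 1 to 4, and 897, 537, 324 and 341 TPM in OGTi replicates 1 to 4. As with Mt1, the groups were apart, and replicates 1 and 2 were the higher ones on both sides. Its log2 fold change was 2.84 ± 0.27 (SE), with a 95% interval of 2.24 to 3.43 (edgeR adjusted p 0.000266). In the 4 pairs Mt2 was 12.4-fold, 4.69-fold, 6.82-fold and 6.59-fold higher. Without replicate 1 the log2 fold change was 2.57, and with the length trend removed it was 2.66. By p-value, Mt2 and Mt1 stood at places 60 and 73 among all genes tested.

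The share of all counts taken by Mt1 and Mt2 together was 0.0138% ± 0.0047 for control cultures and 0.0654% ± 0.0318 after OGTi (SD, n = 4). Their summed level was 745, 824, 448 and 475 TPM in control replicates 1 to 4. In OGTi it was 4028, 2681, 2009 and 1929 TPM. The balance between the isoforms moved as well, since Mt2 gained more than Mt1 in every pair. The ratio of Mt1 to Mt2 in TPM was 6.27, 5.69, 6.29 and 6.37 in control and 3.49, 3.99, 5.21 and 4.66 in OGTi. These ratios did not overlap between the groups, and their means were 6.16 ± 0.31 and 4.34 ± 0.75 (SD, n = 4). The difference in ratio was noticed in the data and is given without a test. Mt1 and Mt2 transcripts are similar in sequence, so reads could in principle be shared between them. Per the methods, Bowtie2 was set to report several alignments of a read, and RSEM estimated the counts by expectation maximization. How this divided reads between Mt1 and Mt2 was not checked.

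Mt3 was barely detected. Its counts were 4, 4, 10 and 9 in control replicates 1 to 4 and 5, 4, 20 and 25 in OGTi. Replicates 3 and 4 were the higher ones in both groups, the reverse of the order seen for Mt1 and Mt2, and the groups overlapped. On scaled counts Mt3 was higher in 4 of 4 pairs, by 1.40-fold, 1.27-fold, 2.40-fold and 3.31-fold in pairs 1 to 4. In TPM, pair 1 went from 0.57 in control to 0.56 in OGTi. The log2 fold change of 1.02 ± 0.68 (SE) had a 95% interval of -0.51 to 2.54 and an edgeR adjusted p of 0.347, so neither no change nor a rise of the size seen for Mt1 lay outside it. The estimate was 1.18 without replicate 1 and 0.86 with the length trend removed. Mt3 made up at most 0.290% of the metallothionein counts of any library. Mt4, the remaining gene of the family, had 0 counts in 7 libraries and 1 count in OGTi replicate 4 and was not tested. A count of 0 allows up to 3 counts, or 0.0803 to 0.0998 CPM (counts scaled by library total) at these depths.

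Mtf1 encodes the zinc-sensing factor itself, and its RNA did not pass the test. It had 4.16, 3.76, 3.86 and 3.82 TPM in control replicates 1 to 4, and 1.41, 3.44, 3.39 and 4.13 TPM in OGTi. The control libraries were close together, with a coefficient of variation of 5.35% in scaled counts, whereas the OGTi libraries spread by 33.3% because replicate 1 lay far below the others. Mean scaled counts were 592 ± 31.7 (control) and 575.5 ± 191.6 (OGTi; SD, n = 4). The fitted log2 difference was -0.11 ± 0.27 (SE), with a 95% interval of -0.71 to 0.50 (edgeR adjusted p 0.840), and Mtf1 was higher in 2 of 4 pairs. Its sign was not settled, since the log2 fold change was 0.19 without replicate 1 and 0.11 with the length trend removed. Protein level and DNA binding of MTF1 were not measured in these libraries.

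Slc30a1 encodes ZnT1, which carries zinc out of the cell across the plasma membrane. It was low, with 82, 61, 49 and 66 counts in control replicates 1 to 4 and 101, 78, 63 and 77 in OGTi. Scaled counts were 75.2, 53.6, 45.1 and 63.6 in control and 103, 87.1, 69.5 and 88.4 in OGTi. Each treated culture lay above its own control, by 1.38-fold to 1.62-fold, but the groups overlapped between OGTi replicate 3 and control replicate 1. The log2 fold change of 0.56 ± 0.30 (SE) had a 95% interval of -0.09 to 1.22 and an edgeR adjusted p of 0.222. That p was 0.273 without replicate 1 and 0.0658 with the length trend removed, where the log2 fold change was 0.85. On the TPM scale, which carries the length trend of OGTi replicate 1, Slc30a1 stood at 0.72 and 0.69 in the control and OGTi cultures of pair 1.

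Slc39a10 encodes ZIP10, a plasma membrane importer of zinc, and it fell. It had 12.9, 9.60, 12.8 and 13.8 TPM in control replicates 1 to 4, and 0.74, 3.56, 2.11 and 1.45 TPM in OGTi. The groups did not overlap, and the highest treated culture, replicate 2, belonged to the pair with the lowest control. Counts were 1616, 1258, 1545 and 1614 in control and 118, 398, 277 and 176 in OGTi. This was a log2 fold change of -2.52 ± 0.36 (SE), with a 95% interval of -3.33 to -1.71 (edgeR adjusted p 0.00161). Control exceeded OGTi 5.73-fold in the fit, and 12.3-fold, 2.49-fold, 4.65-fold and 7.69-fold in pairs 1 to 4. Without replicate 1 it was -2.15 on the log2 scale, and it was -2.26 with the length trend removed.

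**Figure D3:**
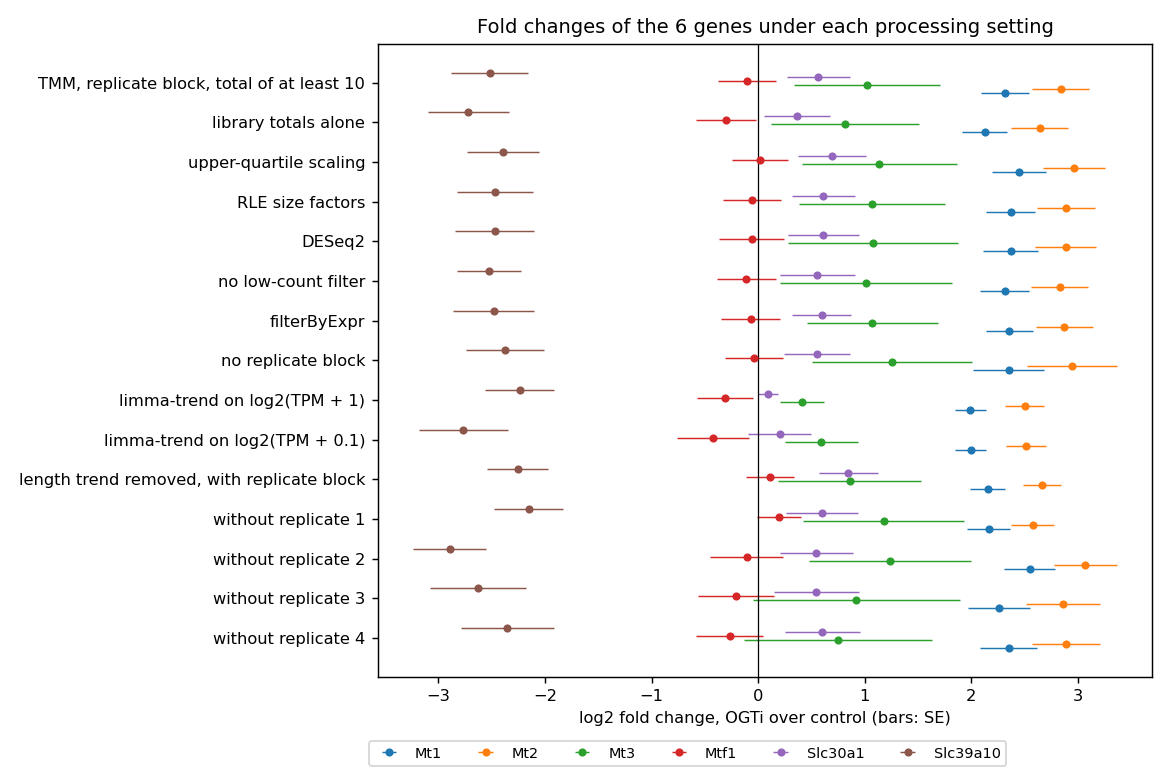
Log2 fold change of OGTi over control (x axis, bars give the SE) for the 6 genes under the reported fit, in the top row, and under each of the 14 alternatives. Mt1 and Mt2 stay to the right of 0 and Slc39a10 to the left under each of them, and Mtf1 lies near 0 on either side.

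Across the alternatives, the log2 fold change ranged from 1.99 to 2.55 for Mt1, from 2.50 to 3.07 for Mt2 and from -2.89 to -2.15 for Slc39a10. Their adjusted p did not exceed 0.00483 for Mt1 and Mt2 or 0.0150 for Slc39a10. Mt3 ranged from 0.41 to 1.25 and Slc30a1 from 0.09 to 0.85, positive throughout and never called, and Mtf1 ranged from -0.42 to 0.19. The plot of fold changes by setting shows these ranges side by side.

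The order of the levels in control, on the TPM scale, was Mt1 (535), Mt2 (87.9), Slc39a10 (12.2), Mtf1 (3.90), Mt3 (1.01) and Slc30a1 (0.578). Neighbours in this order did not overlap except Mt3 and Slc30a1. In OGTi the order was Mt1 (2137), Mt2 (525), Mtf1 (3.09), Slc39a10 (1.97), Mt3 (1.93) and Slc30a1 (0.678). There the ranges of Mtf1, Slc39a10 and Mt3 overlapped, and so did those of Mt3 and Slc30a1. The level of the importer Slc39a10 relative to the exporter Slc30a1 was between 17.8 and 28.4 in control, and it was 1.07, 4.56, 3.98 and 2.04 in OGTi replicates 1 to 4.

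The other zinc transporters were read beside these genes. Among zinc exporters of the Slc30a family, which move zinc out of the cytosol, 0 of 7 tested were called in either direction (edgeR, adjusted p of at most 0.05), and 0 were called in each of the alternatives, beside 18.4% called among all genes tested. With 7 genes, such a share would give few calls, and nothing about the family is read from the count. No exporter had an unadjusted p under 0.05. Their median log2 fold change was 0.34, against 0.01 over all genes tested. Slc30a7, which loads the Golgi, had a log2 fold change of 0.17 ± 0.19 (SE), and Slc30a6 one of -0.11 ± 0.21. These were the most abundant exporters, at 35.5 ± 2.12 and 47.2 ± 3.54 TPM in control (SD, n = 4).

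Among zinc importers of the Slc39a family, 4 of 13 tested were lower and 0 higher, beside 10.2% lower and 8.13% higher among all genes tested, with a median log2 fold change of -0.14. Across the alternatives the lower importers numbered 1 to 5 and the higher ones 0 or 1. The 4 were Slc39a10, Slc39a13, Slc39a1 and Slc39a3. Slc39a13, which encodes the vesicular transporter ZIP13 linked to connective tissue, went from 131 ± 22.3 to 54.4 ± 21.1 TPM (SD, n = 4), and fell by 1.00 ± 0.22 (SE) on the log2 scale (edgeR adjusted p 0.0117). Slc39a1, an abundant plasma membrane importer, went from 438 ± 62.4 to 201 ± 86.1 TPM, a log2 fold change of -0.89 ± 0.23 (edgeR adjusted p 0.0212), and was not called without replicate 1 (-0.82, edgeR adjusted p 0.0542). Slc39a3 had a log2 fold change of -0.73 ± 0.22 and an edgeR adjusted p of 0.0414. It was not called in 8 of the 14 alternatives, including each of the 4 that left out a replicate (edgeR adjusted p 0.0634 without replicate 1). With the length trend removed it was -0.49 and not called (edgeR adjusted p 0.0908). Only the call of Slc39a10 held in each alternative. Without replicate 3 or without replicate 4 it was the 1 importer called. Without replicate 1, and with no block, the lower importers were Slc39a10 and Slc39a13, and without replicate 1 Slc39a6 was called higher. Slc39a7, the endoplasmic reticulum zinc channel ZIP7 and the most abundant importer in control at 486 ± 55.4 TPM, had a log2 fold change of -0.15 ± 0.17 and an edgeR adjusted p of 0.622, but was called lower in both limma fits on TPM. Slc39a14, known as an importer of zinc and iron in hepatocytes, had one of 0.14 ± 0.23. Slc39a12 had the largest positive estimate, 3.69, but on only 34 counts in total and with an edgeR adjusted p of 0.0910, and it was called higher by DESeq2 and by limma on log2(TPM + 0.1). Summed over the family, importers were at 1253 to 1321 TPM in control and 610 to 1020 TPM in OGTi, whereas exporters were at 100 to 109 TPM and 82.7 to 96.7 TPM. These sums follow Slc39a7, Slc39a1 and the other abundant genes, and TPM as a share of a fixed total was itself shifted, with a median difference of -0.10 over all genes on the log2(TPM + 1) scale.

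**Figure D4:**
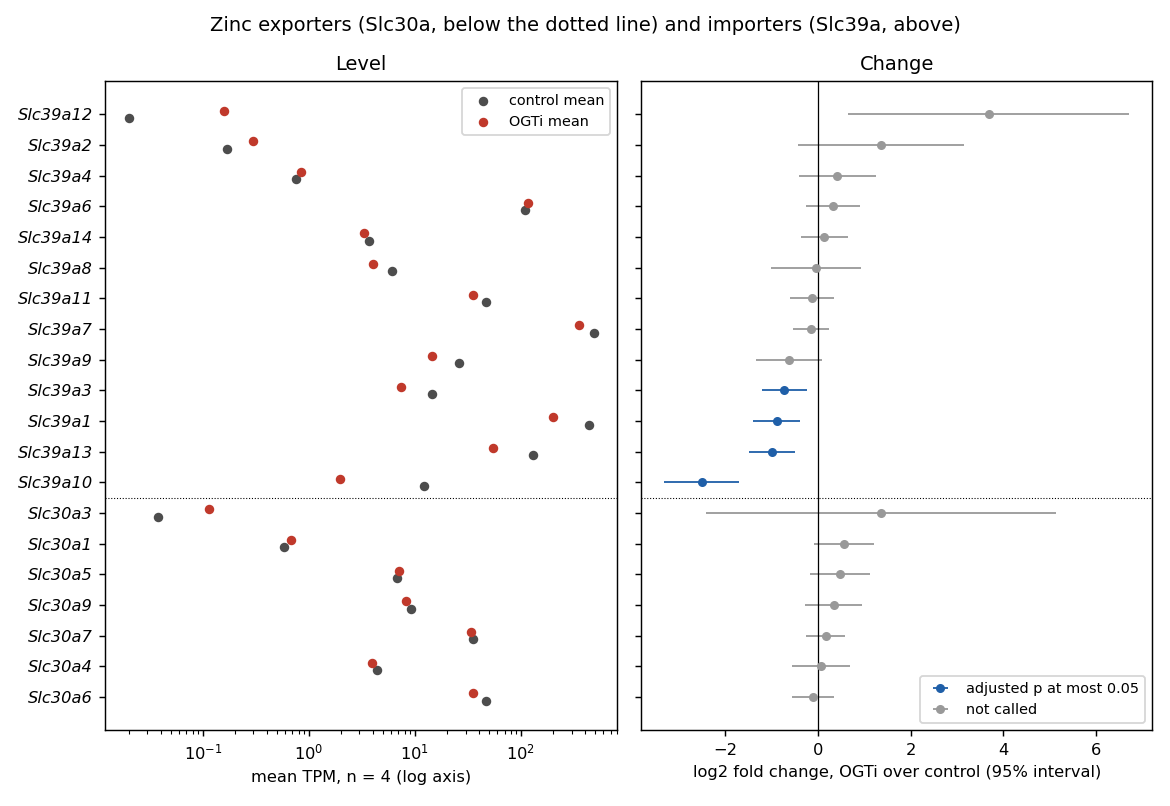
Left, mean TPM (n = 4, log axis) of the tested zinc exporters (Slc30a) and importers (Slc39a) in control and OGTi; right, their log2 fold changes with 95% intervals, blue where the adjusted p was at most 0.05. Slc39a10 lies farthest to the left, 3 more abundant importers follow, and no exporter is called.

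Of 6 other known or reported MTF1 targets, outside the transporter families, 2 were higher and 1 was lower, beside 8.13% and 10.2% of all genes tested. Their median log2 fold change was 0.12. Ndrg1, a stress- and hypoxia-induced gene, went from 12.0 ± 4.14 to 80.9 ± 27.6 TPM (SD, n = 4), a rise of 3.08 ± 0.27 on the log2 scale (edgeR adjusted p 0.000210). Gclc, the catalytic subunit that starts glutathione synthesis, rose by 1.76 ± 0.22 on the log2 scale (edgeR adjusted p 0.000843). Selenoh, a nucleolar selenoprotein, had a log2 fold change of -1.43 ± 0.32 and an edgeR adjusted p of 0.0117, but it was not called without replicate 3, without replicate 4 or with no block (edgeR adjusted p 0.0659, 0.0615 and 0.188). Selenow, the most abundant of the 6, had a log2 fold change of 0.18 ± 0.18 and was not called.

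Copper is the other main metal bound by metallothioneins. Of 13 copper handling genes, 1 was higher and 2 were lower, beside 18.4% of all genes tested called in either direction, and their median log2 fold change was -0.01. The alternatives gave 0 to 2 higher and 1 to 4 lower, with 0 higher and 4 lower in both limma fits on TPM, so nothing about the list is read from these counts. The metalloreductases Steap4 and Steap2 fell by 2.05 ± 0.34 and 1.32 ± 0.26 on the log2 scale (edgeR adjusted p 0.00311 and 0.00691), and Steap4 was not called with no block (edgeR adjusted p 0.0523). Sco2, an assembly factor that brings copper to cytochrome c oxidase, had a log2 fold change of 0.84 ± 0.23 (edgeR adjusted p 0.0299), and it was not called in 7 of the 14 alternatives, including each of the 4 that left out a replicate. Atox1, the cytosolic copper chaperone and the most abundant of the list, had a log2 fold change of 0.60 ± 0.20 and an edgeR adjusted p of 0.0678. It was called higher with upper-quartile scaling, DESeq2 and filterByExpr (adjusted p 0.0430, 0.0190 and 0.0461).

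Metallothionein genes also respond to oxidative stress and to glucocorticoids, so a list for each was read beside them. Of 10 NRF2 targets, 8 were higher and 0 were lower, beside 8.13% and 10.2% of all genes tested, and their median log2 fold change was 1.71. The alternatives gave 7 to 9 higher and 0 lower. The leading ones by p were Srxn1 (sulfiredoxin), Nqo1 (a quinone reductase), Hmox1 (heme oxygenase) and Osgin1, with log2 fold changes of 3.53, 2.27, 2.68 and 2.51 and edgeR adjusted p-values of 3.7e-05, 0.000220, 0.000277 and 0.000351. These 4 were called in each alternative. Gclc belongs to this list as well as to that of MTF1 targets. Txnrd1 (thioredoxin reductase) had a log2 fold change of 0.41 ± 0.20 (SE) and was not called, but with the length trend removed it was 0.62 and was called (edgeR adjusted p 0.0177). Of 8 glucocorticoid response genes, 1 was higher and 1 was lower, again beside 18.4% called over all genes. This balance was not stable, with 0 to 3 higher and 0 or 1 lower across the alternatives, 3 higher with DESeq2 and with the length trend removed, and 0 of either without replicate 2 or without replicate 3. Sgk1 had a log2 fold change of 0.59 (edgeR adjusted p 0.0467) and Tsc22d3, which encodes GILZ, one of -0.73 (edgeR adjusted p 0.0409), and both lost their call when any of replicates 2, 3 and 4 was left out. Dusp1, the most abundant of the list, had a log2 fold change of 1.66 ± 0.69 and an edgeR adjusted p of 0.127, with 16.3 to 519 TPM across the control libraries. It was called higher without replicate 4, at the smaller value of 0.81 (edgeR adjusted p 0.0430), and with no low-count filter (edgeR adjusted p 0.000206). The part of either pathway in the change of Mt1 and Mt2 was not tested.

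**Figure D5:**
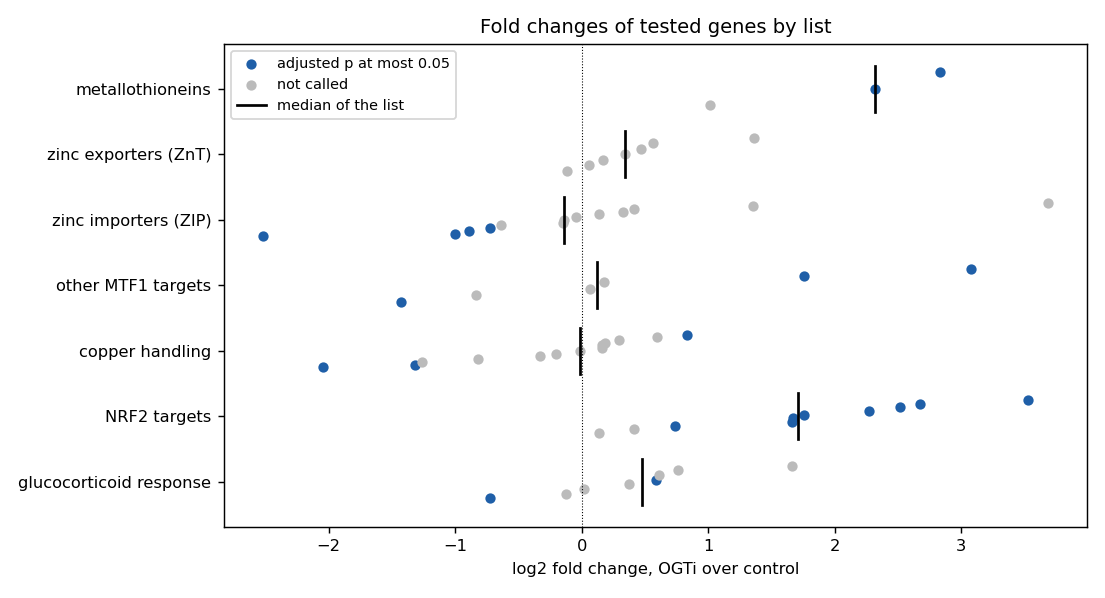
Log2 fold change of OGTi over control (x axis) for each tested gene of 7 lists (rows); blue points had an adjusted p of at most 0.05, grey points did not, and black bars mark the list medians. The metallothioneins and the NRF2 targets lie to the right, with medians of 2.32 and 1.71, while the other lists spread to both sides of 0.

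Within 500 kb of Mt1, GENCODE lists 15 protein-coding genes besides the 3 members, and 13 of them were tested. Of these 13, 2 were higher and 0 were lower, against 8.13% and 10.2% of all genes tested, and nothing about the locus is read from these counts. Their log2 fold changes ran from -1.81 to 1.72, and their median was 0.13. The genes called were Herpud1, an endoplasmic reticulum stress gene 206 kb away (log2 fold change 1.72, edgeR adjusted p 0.0136), and Cpne2, 352 kb away (1.58, edgeR adjusted p 0.0125). Nup93, which encodes a nuclear pore protein and is the nearest tested gene outside the cluster at 34.1 kb, had a log2 fold change of -0.67 ± 0.21 (SE; edgeR adjusted p 0.0537).

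Likeness of pattern was described by Pearson's r of log2 CPM over the 8 libraries, among 10713 genes with a mean of at least 100 scaled counts. These libraries share the treatment contrast and the pairing. Of the genes compared, 443 (4.14%) had an r of at least 0.9 with Mt1 and 12 (0.112%) with Slc30a1. Slc30a1 itself, with a mean of 73.3 scaled counts, lay under the minimum set for the genes it was compared with. Mt1 followed Mt2 with an r of 0.997 and ran against Slc39a10 with an r of -0.949, whereas its r with Mtf1 was -0.401. Outside the 6 genes, the nearest to Mt1 were Pgrmc1 (0.993), which encodes a heme-binding membrane protein, Lce1h (0.991), an epidermal cornified envelope gene, Gm52789 (0.991), LOC118567607 (0.989) and Fads3 (0.989). Slc30a1 was nearest to Cdk13 (0.965), Sirt1 (0.944), Gas8 (0.940), Rad9a (0.925) and Rbm34 (0.923), and its r with Mt1 and Mt2 was 0.842 and 0.843.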

How the data were processed

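RNA of 8 cultures of primary mouse stellate cells was measured. Per the labels and methods, polyadenylated RNA was enriched and sequenced from stranded, paired-end libraries, and reads were aligned to mm39 (GRCm39) with Bowtie2 2.3.5.1 and counted with RSEM 1.3.1. A GENCODE annotation is named in the methods, but the deposited tables carry RefSeq identifiers. The authors deposited RSEM expected counts, which are estimated counts per gene, and TPM values, which are scaled to gene length and depth. A further deposited table holds the authors' comparison from DESeq2 1.36.0 and was not used.

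Expected counts were rounded and fitted in R 4.3.3 by edgeR 4.0.16. Genes with a total of at least 10 counts were tested (19963 of 40840) with TMM scaling and glmQLFTest, with replicate number as a block, and p-values were adjusted over all of them by the Benjamini-Hochberg method. A gene was called where its adjusted p did not exceed 0.05. The block follows the methods, which pair the samples of one replicate. As a check, deviations from the group means correlated across genes at 0.160, 0.224, 0.105 and 0.318 for replicates 1 to 4, and at -0.312 to 0.208 between differently numbered libraries, so that OGTi replicate 1 was nearer to control replicate 2 (0.208) and control replicate 3 nearer to OGTi replicate 4 (0.122). Scaled counts are counts brought to the mean TMM-adjusted library size.

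The members and gene lists were chosen with earlier results of these data known. From the lists of zinc transporters and metallothioneins every tested gene could be named, and from other lists the called genes, up to 4 by smallest p, and the most abundant gene not called. Like-patterned genes were the 5 with the highest correlation to Mt1 and to Slc30a1. Library totals alone, upper-quartile and RLE scaling, DESeq2 1.42.0, other count filters, no block, limma 3.58.1 on log2(TPM + 1) or log2(TPM + 0.1), removal of a length trend, and leaving out each replicate were tried as alternatives (14 in all).

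Totals of 30068876 to 37372420 expected counts per library limit the precision only for genes with few counts. Reads carry no molecular identifiers here, so the count floor covers counting error only. Promoter windows came from a RefSeq table built on GRCm38.p6 and were placed on GRCm39 by exact match, for all 6 genes.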

Additional observations from a re-analysis of the deposited data

Results flagged for a closer look

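Scaled counts of the 6 genes were searched, in 12 groups of values, for a single culture lying far from the other 3. There were 2 such cultures, and chance alone flags about 1 in 20 groups, or 0.6 here. Mt1 in OGTi replicate 1 had 33870.8 scaled counts, against 14461 to 17113 in the other OGTi libraries. The length trend at Mt1 was 0.64 on the log2 scale in that library, and Mt1 remained called without replicate 1. Mtf1 in control replicate 1 had 639.3 scaled counts, against 573 to 579 in the other control libraries. What set these libraries apart was not tested.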

How the results depend on the processing

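The calls of Mt1, Mt2 and Slc39a10, and the lack of one for Mt3, Mtf1 and Slc30a1, were the same under the 14 alternatives. Mtf1, never called, changed sign to 0.018 with upper-quartile scaling, 0.11 with the length trend removed and 0.19 without replicate 1. Selenow, never called, changed sign to -0.018 with library totals alone and to -0.15 with limma on log2(TPM + 1) and on log2(TPM + 0.1). The cause of these shifts was not tested. Fits that left out one replicate gave 1905 to 3124 changed genes, with fewer samples in each fit, against 3666. They gave log2 fold changes of 2.16 to 2.55 for Mt1, 2.57 to 3.07 for Mt2, 0.75 to 1.23 for Mt3, -0.27 to 0.19 for Mtf1, 0.54 to 0.60 for Slc30a1 and -2.89 to -2.15 for Slc39a10. Without the pairing (no replicate block), 2991 genes changed, and the values were 2.35, 2.95, 1.25, -0.04, 0.55 and -2.37 for these genes in the same order. The share of higher genes among those called was 44.3%, but 30.1% with library totals alone, 54.2% with upper-quartile scaling and 25.7% or 26.2% with limma on TPM. The median of all genes moved to -0.19 and 0.13 under the first and second of these scalings. Counts under 30 per library limit Mt3, and those of 49 to 101 limit Slc30a1.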
